A study of Caenorhabditis elegans with 54 samples.

Results

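The col genes of Caenorhabditis elegans were followed through 9 experiments in which RNA bound to ribosomes was sequenced beside total RNA. They were taken as all protein-coding genes whose WormBase symbol begins with col-, which gave 156 members among the 20728 gene identifiers of the series. Of the 156, 150 were listed in at least 1 of the 9 tables and 121 in all 9. A mean of at least 10 normalized counts, the level needed for a test, was reached by 133 members in at least 1 experiment and by 90 in every experiment. The remaining symbols (col-9, col-35, col-51, col-114, col-183 and col-185) were in no table.

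Every sample was day 1 adult animals grown at 20 °C on the bacterial strain OP50, and each experiment set 3 libraries of ribosome-bound RNA against 3 of total RNA from the same strain. In 6 experiments ribosomes were immunoprecipitated (IP) through FLAG-tagged RPL-22, a protein of the large ribosomal subunit. The intestine strain (WBM1470, wbmIs131) carried the tag under the promoter of nep-17, the muscle strain (WBM1339, wbmIs118) under that of myo-3 and the soma strain (WBM1364, wbmIs119) under that of eft-3. Both neuron strains used the rab-3 promoter, and they are called neurons A (MSD473, wbmls99) and neurons B (WBM1471, wbmIs133). In the ubiquitous strain (MSD470) the tag sat on the endogenous gene, rpl-22(wbm58). In the other 3 experiments ribosomes were separated on sucrose gradients after cycloheximide, which gave polysomes of the tagged strain MSD470, pooled 60S, 80S and polysome fractions of MSD470, and polysomes of untagged wild-type Bristol N2 animals. Whether the replicates came from separate cultures is not in the labels, so a p-value reflects how far these libraries spread, which may be technical.

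Cuticle collagens are short secreted proteins with repeated Gly-X-Y triplets that form triple helices, and they make up most of the worm's exoskeleton. The epidermis secretes them, each moult lays down a new cuticle from a stage-specific set of them, and the genes are usually small with few introns. Prolyl hydroxylases and protein disulphide isomerases work on the chains before secretion, and proteases and crosslinking enzymes act on them later. The muscle, the intestine and most neurons are not known as sources of cuticle. Collagens of basement membranes are a separate class, made in the worm mainly by muscle and a few other cells.

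The promoter genes checked the labels. Values are log2 ratios of a fraction over its own total RNA with their standard error (SE), and adjusted p-values are from limma with Benjamini-Hochberg adjustment over all genes tested. nep-17 rose in the intestine IP (log2 3.32, SE 0.35, adjusted p = 0.000412), myo-3 in the muscle IP (3.41, SE 0.21, adjusted p = 1.81e-07) and rab-3 in the neurons A IP (6.06, SE 0.93, adjusted p = 0.00527) and the neurons B IP (6.21, SE 0.35, adjusted p = 1.88e-07). All 13 listed intestine markers rose in the intestine IP and all 13 body wall muscle markers in the muscle IP, and 12 and 13 of 13 neuron markers rose in the neurons A and neurons B IP. The largest library sum of normalized counts was 5.21 times the smallest. Of the 54 libraries, neurons A IP replicate 3 and intestine IP replicate 2 had the most genes at 0, with 7896 and 6112. They had 91 and 65 col genes above 0, against 109 to 138 in the other 52.

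In total RNA the family was dominated by a few genes with short transcripts. Levels are in ppm of the library sum per kb of transcript, as the median over the 27 total RNA libraries. The highest were col-140 at 3134, col-124 at 3051, col-119 at 3031, col-20 at 3013, col-122 at 2613 and col-178 at 2363, followed by col-93, col-19, col-181 and col-8 at 1931 to 1451. The level was down to 42.8 at rank 40 (col-10), and 24 members had a median of 0. The 10 highest members of a library made up 54.1% to 72.2% of its col sum in total RNA. The 40 most abundant members, a group drawn after the values had been seen, all have 1 to 3 exons in the annotation, while 39 of the 156 have 4 or more. They lie on every chromosome, with 12 on V, 10 on IV, 7 on X, 6 on III, 4 on II and 1 on I. Of all members, 50 have another col gene within 10 kb, as in the run of col-17, col-20 and col-73 on chromosome II and that of col-167 to col-171 on X. Col-159 and col-160 overlap each other, as do col-46 and col-47, and the values of such pairs are uncertain. Col-126 and col-127 lie 511 bp apart (chromosome IV, 11263401 to 11264397 and 11264908 to 11266190, WBcel235) and had values within 1% of each other in 8 tables, so the reads of the 2 genes could not be told apart.

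The share of a library taken by all col genes together set the experiments apart before any test of single genes. It was above total RNA in every fraction library of the soma IP, with 12.8%, 12.6% and 9.1% against 4.57%, 4.98% and 4.02% in its total RNA. The ubiquitous IP held 6.66%, 7.26% and 7.54% against 5.28%, 5.51% and 6.18% in total RNA. Polysomes of wild type held 5.59%, 6.04% and 4.69% against 2.53%, 2.4% and 2.63%, those of the tagged strain 6.63%, 4.6% and 4.94% against 2.69%, 3.45% and 2.37%, and the pooled fractions 4.67%, 3.39% and 3.52% against 2.88%, 3.1% and 2.67% in total RNA. The 4 tissue IPs went the other way. The intestine IP held 0.771%, 0.604% and 0.611% against 3.84%, 4.2% and 2.11%, and the muscle IP 1.46%, 0.736% and 0.58% against 4.13%, 4.45% and 4.48% in total RNA. The neurons A IP held 1.44%, 1.05% and 1.06% against 7.54%, 6.46% and 8.76%, and the neurons B IP 0.682%, 0.558% and 0.627% against 2.7%, 3.22% and 3.1% in total RNA. The groups of libraries did not overlap in any of the 9 experiments. The mean share in the fraction was 0.156 to 0.212 times that of total RNA in the 4 tissue IPs. It was 1.26 to 2.55 times that of total RNA in the other 5. These shares depend on the library sums. Every intestine, muscle and neurons B IP library had a larger sum than every library of its total RNA. Without division by the sums, the members' median log2 ratios were smaller falls than those of the share. They were -1.41 (intestine), -0.98 (muscle), -2.32 (neurons A) and -1.72 (neurons B). Neurons A total RNA had the highest share of the 9 total RNA groups.

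**Figure D1:**
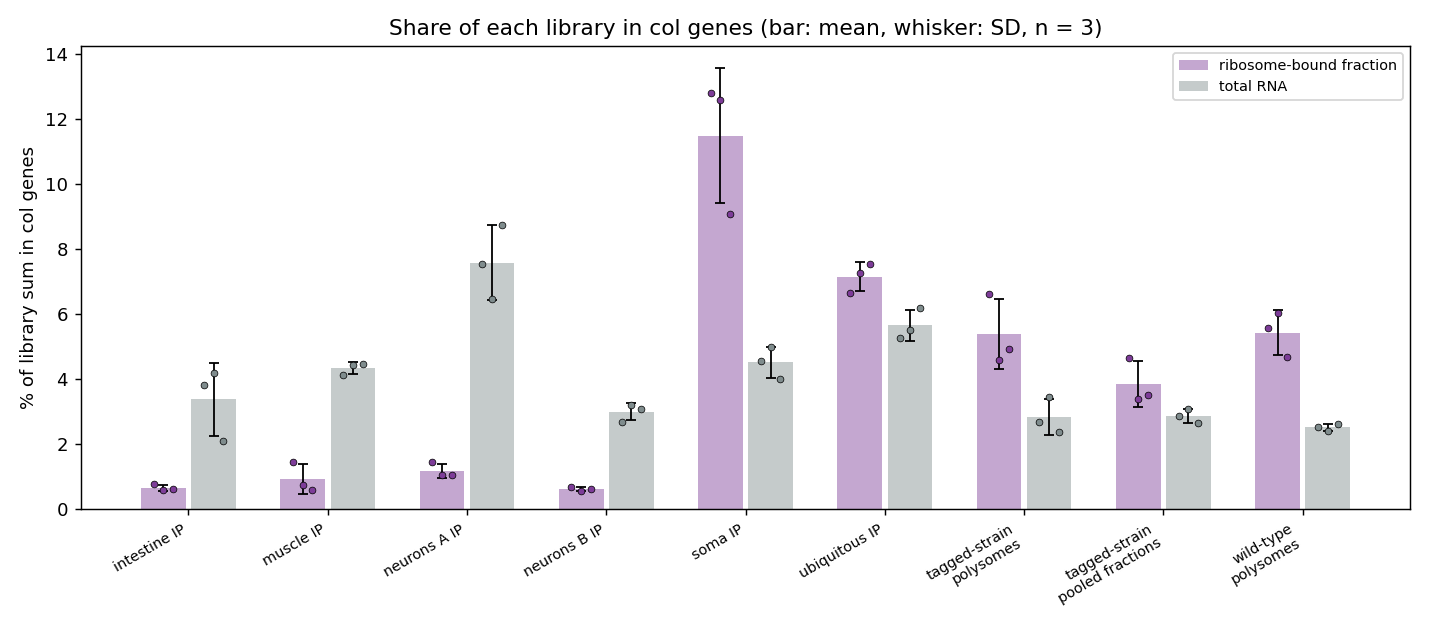
Percentage of each library's summed normalized counts that came from col genes (vertical axis), by experiment, with the ribosome-bound fraction left of its total RNA. Bars are means, whiskers are SD over 3 libraries and points are single libraries. The fraction lies below its total RNA in the intestine, muscle and both neuron IPs and above it in the other 5 experiments.

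In the soma IP, which asked what is on ribosomes of somatic cells as a whole, col genes rose as a family. Of 120 members tested 69 rose (57.5%, against 25.1% of all 16031 genes tested) and none fell (32.7% of all genes). Of the 120, 8 had a total RNA mean under 10 and were tested only through the IP. Among the other 112, 67 rose. The members' median log2 ratio was 1.17, with a middle range of 0.84 to 1.44, against -0.09 for all genes. Without soma IP replicate 1, the library with the highest share, 37 rose, and without soma IP replicate 2 or total RNA replicate 3 it was 44.

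Col-119, a single-exon gene on chromosome IV (8978926 to 8979795, WBcel235), had 347033, 487236 and 273081 normalized counts in the soma IP and 138384, 178945 and 148216 in total RNA. Every IP library was above every total RNA library (log2 1.22, SE 0.25, adjusted p = 0.00242). The largest rises among members with a mean of at least 100 and groups apart were those of col-88, col-106 and col-153. Col-88 (chromosome III, 41063 to 41971) had 1488, 801 and 592 in the IP and 302, 202 and 127.1 in total RNA (log2 ratio 2.16, SE 0.42, adjusted p = 0.00214). Col-106 (chromosome IV, 1459896 to 1460786) had 322923, 247546 and 266165 in the IP and 62486, 77414 and 57318 in total RNA (log2 ratio 2.09, SE 0.22, adjusted p = 0.000862). Its IP libraries held more than 3 times the highest total RNA value. Col-153 (chromosome V, 10949811 to 10951821), a less abundant member with 4 exons, had 1538, 1529 and 1948 in the IP and 403, 503 and 316 in total RNA (log2 ratio 2.05, SE 0.30, adjusted p = 0.000992).

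Markers of other cells moved too in the soma IP. Of 19 epidermis markers with no collagens among them 6 rose and 3 fell. Among all genes 25.1% rose and 32.7% fell. The summed share of the epidermis markers was 0.0502% to 0.0728% in the IP against 0.0294% to 0.0364% in total RNA. All 12 germline markers fell (0.125% to 0.246% of the IP against 0.697% to 1.28% of total RNA), and 9 of 13 intestine markers rose (2.27% to 3.9% against 1.32% to 1.65%). Of 13 neuron markers 7 rose (0.0619% to 0.063% against 0.0337% to 0.037%), and of 13 muscle markers 5 rose and myo-3 fell (1.57% to 1.82% against 0.594% to 0.995%). No marker was at 0 in a whole group of libraries. The part of these cell types in the rise of col genes was not tested. In bulk samples such as these, fewer cells of a type and less RNA per cell cannot be told apart.

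**Figure D2:**
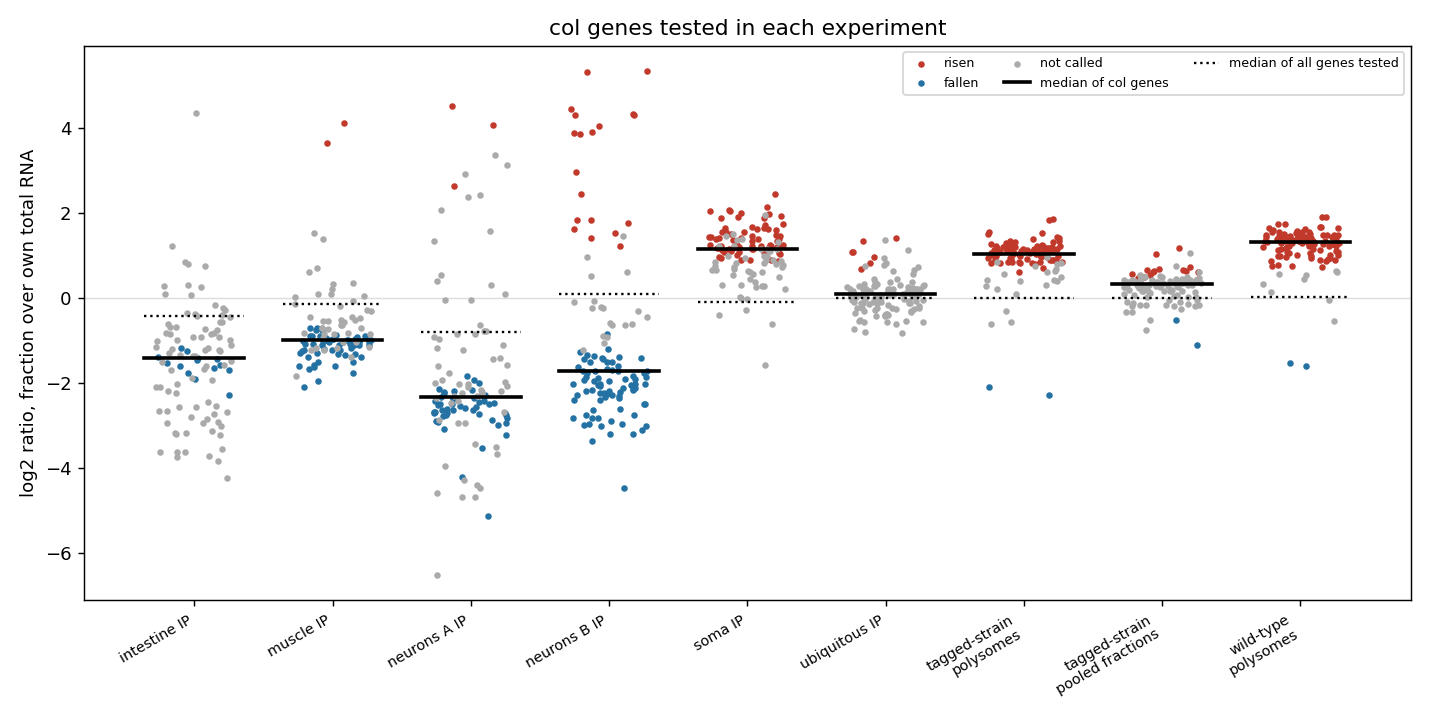
Log2 ratio of the ribosome-bound fraction over its own total RNA (vertical axis) for each col gene tested, by experiment. Red points rose, blue points fell and grey points did not pass the test, the solid line is the median of col genes and the dotted line that of all genes tested. The solid line lies below the dotted line in the first 4 experiments and above it in the soma IP and both polysome experiments.

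Polysomes, the fraction in which several ribosomes share an mRNA, showed the family's rise most evenly. In wild-type animals 90.2% of 112 members rose (33.6% of all 14705 genes did) and 2 fell (33.9% of all genes), with a median log2 ratio of 1.32 against 0.02 for all genes. In the tagged strain 88 of 111 rose (28.4% of all 14651 genes) and 2 fell (30.3%), with a median of 1.05 against 0.01. Counting only members with a total RNA mean of at least 10, 87 of 109 rose and 2 fell. All 88 risen members of the tagged strain also rose in wild type, an overlap for which no share over all genes is given. The tagged-strain count was 39 without replicate 3 and 53 without replicate 1 of its total RNA. When libraries were scaled to equal sums, which shifted the median of all genes by -0.38 in wild type and -0.26 in the tagged strain, 79 and 72 members rose.

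Across the 111 members tested in both strains the 2 sets of log2 ratios had a Pearson correlation of 0.927, given as a description of genes that share a library. The difference between the tagged and the wild-type ratio passed the limma interaction test for 0 of 111 members and for 0% of all 14698 genes. At an unadjusted p under 0.05 it was 2 members and 702 genes. The median difference, tagged minus wild type, was -0.27 for members and -0.08 for all genes.

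Col-135 (chromosome IV, 15129655 to 15131797) was the member that rose most in polysomes. It had 8362, 11204 and 7927 normalized counts in wild-type polysomes and 2249, 2142 and 2814 in total RNA (log2 ratio 1.92, SE 0.15, adjusted p = 6.21e-08). In the tagged strain it had 14118, 6380 and 7152 in polysomes and 1776, 3410 and 2209 in total RNA (log2 ratio 1.86, SE 0.34, adjusted p = 0.00182). Polysome and total RNA libraries did not overlap in either strain. Members with a mean under 100, such as col-61 in wild type (log2 1.92, SE 0.35, adjusted p = 0.000181) and col-152 in the tagged strain (log2 1.85, SE 0.33, adjusted p = 0.00177), rose by nearly as much. Among those with a mean of at least 100, col-106 had 78002, 89119 and 55919 against 20185, 20767 and 24910 in wild type (log2 1.74, SE 0.18, adjusted p = 6.21e-07). Col-167 (chromosome X, 6323488 to 6324393) had 13101, 13096 and 5576 in wild-type polysomes and 3321, 3071 and 2536 in total RNA (log2 ratio 1.74, SE 0.25, adjusted p = 1.81e-05). Replicate 3 was its lowest polysome library and still above every total RNA library. In the tagged strain col-49 had 1593, 559 and 682 in polysomes and 317, 344 and 272 in total RNA (log2 ratio 1.45, SE 0.35, adjusted p = 0.00694). Beside the rise of col genes, the epidermis marker list took a smaller share of polysomes, 0.0247% to 0.0318% against 0.0445% to 0.0472% of total RNA in wild type and 0.0178% to 0.0302% against 0.0391% to 0.0475% in the tagged strain. In wild type 6 of its 18 tested genes rose and 3 fell, and in the tagged strain 2 of 19 rose and 4 fell. Among all genes 33.6% rose and 33.9% fell in wild type, and 28.4% and 30.3% in the tagged strain. Germline markers fell in both (10 of 12 in wild type, where 1 rose, and 11 of 12 in the tagged strain). Intestine markers rose in 12 of 13 in wild type (median log2 1.05) and 11 of 13 in the tagged strain (median 0.84), muscle markers in 12 of 13 (median 1.00) and 6 of 13 (median 0.60), and neuron markers in 7 of 13 (where 2 fell) and 4 of 13. The part of these cells in the polysome values was not tested.

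Col-76 and col-116 ran against the family in polysomes. Col-76 (chromosome II, 8204339 to 8207495, with 6 exons) had 162, 124 and 107 normalized counts in wild-type polysomes and 345, 400 and 441 in total RNA (log2 ratio -1.60, SE 0.18, adjusted p = 1.8e-06). In tagged-strain polysomes it had 91.1, 107 and 85.5 against 394, 443 and 369 in total RNA (log2 ratio -2.08, SE 0.18, adjusted p = 9.89e-05), and in the pooled fractions 226, 210 and 163 against 356, 457 and 467 (log2 -1.10, SE 0.18, adjusted p = 0.000267). Each polysome or pooled library was below each of its total RNA libraries, and the call held when any 1 library was left out. The ubiquitous IP of the same strain had 161, 155 and 168 against 154, 138 and 107 in total RNA, which did not pass the test (log2 0.30, SE 0.19, adjusted p = 0.257). Col-116 (chromosome IV, 8355906 to 8357919) is a low-abundance member with 4 exons. It had 7.40, 5.84 and 5.48 in wild-type polysomes against 14.2, 23.3 and 23.4 in total RNA (log2 ratio -1.53, SE 0.40, adjusted p = 0.00351), and 4.76, 10.2 and 6.39 against 27.1, 60.1 and 31.1 in the tagged strain (log2 -2.28, SE 0.44, adjusted p = 0.00226). Col-144, on chromosome V next to col-145 and col-10, was the other member to fall in the pooled fractions, with 3088, 1866 and 1653 against 2844, 3382 and 2878 in total RNA. Those groups overlapped (log2 -0.51, SE 0.20, adjusted p = 0.0487).

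**Figure D3:**
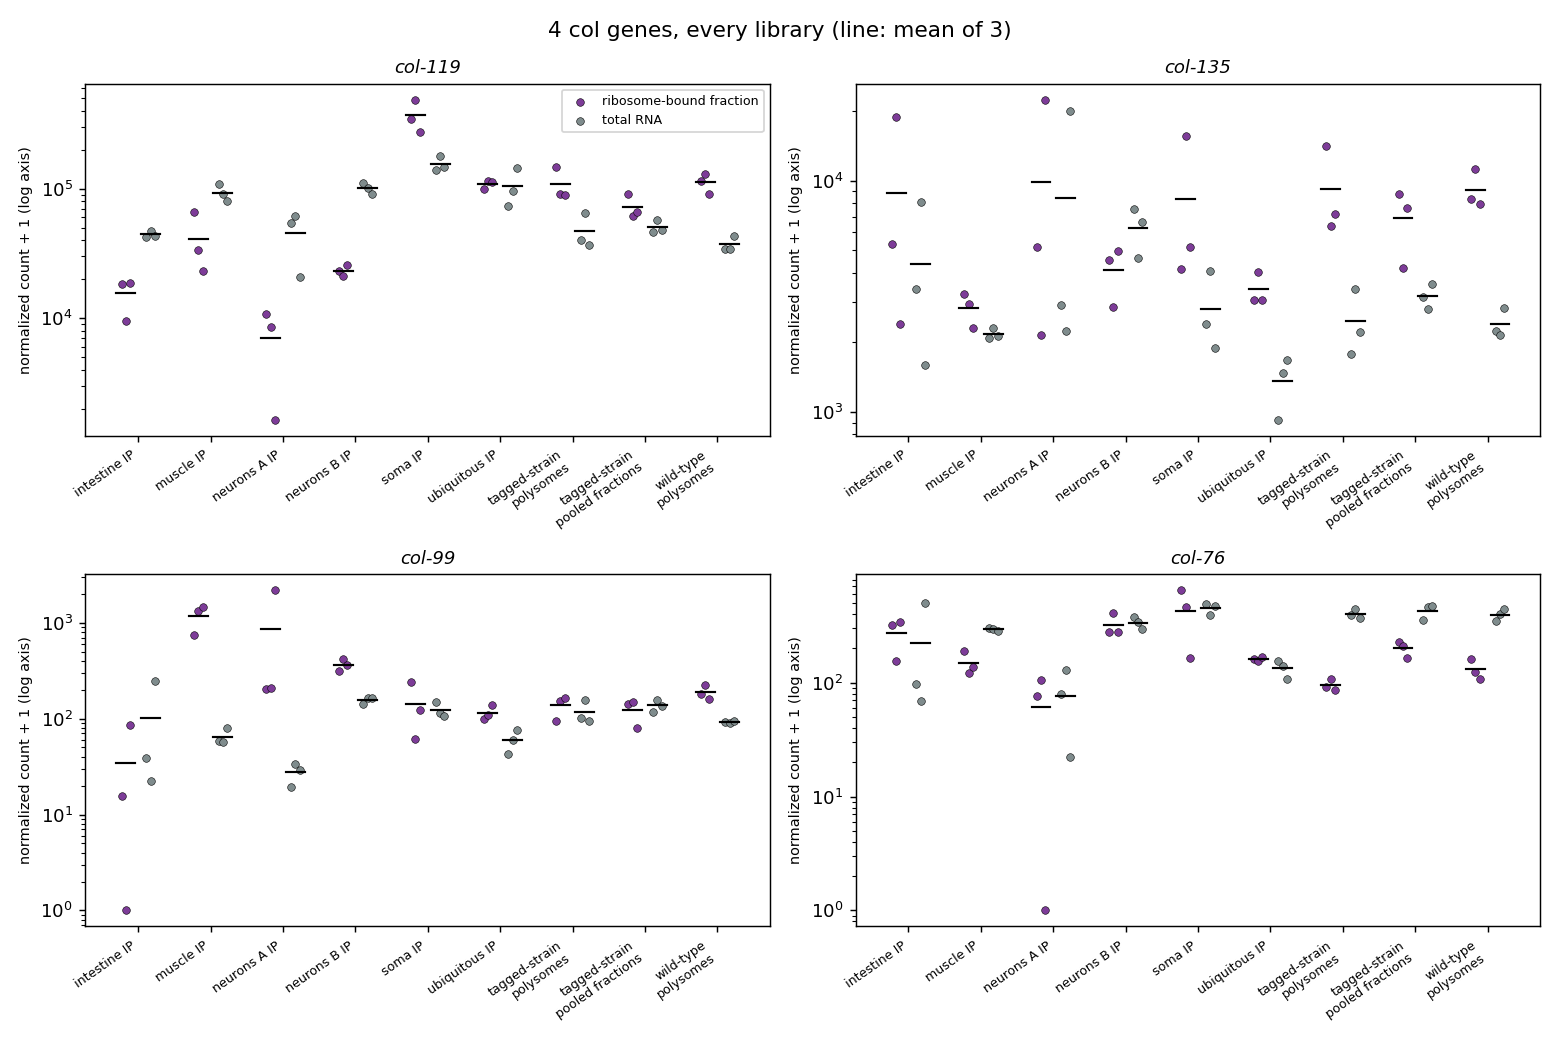
Normalized count plus 1 (vertical, log axis) of col-119, col-135, col-99 and col-76 in every library, by experiment, with the ribosome-bound fraction left of its total RNA and lines at the mean of 3. Col-76 lies below total RNA in polysomes and pooled fractions, where col-119 and col-135 lie above it, and col-99 lies above total RNA in the muscle IP and both neuron IPs.

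The pooled 60S, 80S and polysome fractions and the ubiquitous IP showed smaller changes of the family. In the pooled fractions 16 of 112 members rose (20.6% of all 14824 genes) and 2 fell (23.1%), with a median of 0.32 against 0.00 for all genes. The 16 included col-119, col-122, col-8, col-98 and col-106 of the 40 most abundant. The count was 2 without pooled replicate 1, 28 and 36 without pooled replicates 2 and 3, and 5 to 9 without any 1 total RNA library. Col-135 was again among the largest rises (8760, 4201 and 7640 in the pooled fractions against 3131, 2799 and 3593 in total RNA, log2 ratio 1.05, SE 0.22, adjusted p = 0.00173). Col-49 (log2 0.66, SE 0.20, adjusted p = 0.0137) and col-153 (log2 0.66, SE 0.17, adjusted p = 0.00707) also rose.

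In the ubiquitous IP 7 of 113 members rose (16.9% of all 13853 genes) and none fell (20.4%), and the median was 0.09 against 0.01 for all genes. At an unadjusted p under 0.05 it was 12 members in either direction. The replicate numbers pair the libraries in this experiment, and with the replicate as a block 10 rose and 5 fell, a split that the authors' deposited table also gives (10 and 5). Without replicate 3 of total RNA 37 rose, and without IP replicate 3 it was 3. The 7 were col-42, col-53, col-99, col-135, col-153, col-158 and col-186, of which col-42 is among the 40 most abundant. Col-135 had 3055, 4044 and 3061 in the IP and 925, 1475 and 1676 in total RNA (log2 ratio 1.35, SE 0.22, adjusted p = 0.00129). Col-186 (chromosome X, 15951494 to 15954789, with 7 exons) had 208, 182 and 204 in the IP and 89.1, 64.4 and 136 in total RNA (log2 ratio 1.09, SE 0.26, adjusted p = 0.00881). Col-42 (chromosome V, 18638484 to 18639591) had 21623, 29598 and 29540 in the IP and 10916, 14959 and 20288 in total RNA (log2 ratio 0.84, SE 0.24, adjusted p = 0.022). The IP libraries of all 3 lay above their total RNA libraries. Col-119 had 99930, 114935 and 113265 in the IP and 73064, 95343 and 143821 in total RNA, and these overlapped.

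The 4 tissue IPs asked which transcripts were on ribosomes of intestine, muscle and neurons, and in all 4 the family's median lay below that of all genes. The fall was most complete in the neurons B IP, where 77 of 115 members fell (32.6% of all 16572 genes) and 19 rose (38.7%), with a median of -1.72 against 0.10. All 40 of the most abundant members fell there, by log2 ratios of -1.27 to -4.48, the last that of col-117, which has 1 IP library at 0. In the muscle IP 60 of 107 fell (13.1% of all 14681 genes) and 2 rose (23.1%), with a median of -0.98 against -0.14. In the neurons A IP 48 of 112 fell (12% of all 14483 genes) and 3 rose (15.3%), with a median of -2.32 against -0.80. In the intestine IP 14 of 100 fell (9.61% of all 13629 genes) and none rose (17.8%), with a median of -1.41 against -0.42, while 36 members had an unadjusted p under 0.05.

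Single libraries weighed on 3 of these counts. In muscle 26 members fell without IP replicate 2, and 34 to 35 without IP replicate 3 or total RNA replicate 3. In neurons A 80 fell without IP replicate 3, 19 to 23 without IP replicate 1 or 2 and 3 to 13 without any 1 total RNA library. In the intestine 1, 2 and 24 fell without total RNA replicates 1, 2 and 3, and 7 without IP replicate 1. Intestine total RNA replicate 3 had the lowest col share of its group (2.11%), yet some scarce members were high in it. Col-74, col-165 and col-121 had 1391, 1606 and 496.9 there, against 13.57 to 35.04 in replicates 1 and 2. In IP replicate 3 they had 412, 333.4 and 103.9, against 0 to 21.66 in the other IP libraries. The part of this replicate in the intestine counts was not tested further. In the intestine experiment each library correlated best with the one of the same replicate number, by deviations from the group mean. In neurons A those correlations were 0.313 to 0.571, but not every library correlated best with its own number. With the replicate as a block 41 members fell and 3 rose in the intestine IP and 73 fell and 4 rose in the neurons A IP. In the authors' deposited table the counts were 59 fallen and 3 risen in the intestine IP, 59 and 4 in the muscle IP, 82 and 8 in the neurons A IP and 75 and 19 in the neurons B IP.

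Col-119 had 18460, 9448 and 18801 normalized counts in the intestine IP and 42670, 47452 and 43073 in total RNA (log2 ratio -1.58, SE 0.35, adjusted p = 0.013). In the muscle IP it had 65667, 33874 and 23148 against 107839, 91429 and 80591 in total RNA (log2 ratio -1.32, SE 0.33, adjusted p = 0.0101), and in the neurons B IP 23045, 21250 and 25665 against 111363, 101549 and 90458 (log2 -2.12, SE 0.31, adjusted p = 0.000195). The neurons A IP had 10699, 8621 and 1646 against 54693, 61117 and 20718 in total RNA (log2 ratio -2.94, SE 0.86, adjusted p = 0.0428), with replicate 3 lowest in both groups. In none of these experiments did the groups overlap. Col-119 was 1 of 12 members that fell in all 4 tissue IPs, with col-73, col-80, col-92, col-95, col-96, col-140, col-142, col-155, col-160, col-178 and col-181. Of these 12, 10 also rose in the soma IP and in both polysome experiments. The same overlaps among all genes are not given, so these counts have no background to be read against.

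Among members with a mean of at least 100 and groups apart, the largest falls differed between tissues. In the intestine IP they were col-34 (54.4, 50.4 and 43.7 against 129, 199 and 255 in total RNA, log2 ratio -1.90, SE 0.49, adjusted p = 0.023), col-96 (log2 -1.76, SE 0.55, adjusted p = 0.0479) and col-92 (log2 -1.68, SE 0.48, adjusted p = 0.0352). In the muscle IP they were col-73 (174, 54.3 and 54.7 against 342, 302 and 397, log2 -2.09, SE 0.41, adjusted p = 0.00216), col-117 (log2 -1.95, SE 0.50, adjusted p = 0.0119) and col-155 (log2 -1.59, SE 0.30, adjusted p = 0.00185). In the neurons A IP col-91 had 51.4, 32.9 and 0 against 388.2, 391.9 and 486.8 (log2 -5.12, SE 1.53, adjusted p = 0.0461), and its fitted ratio rests in part on the IP library listed at 0. Col-149 (log2 -3.52, SE 0.75, adjusted p = 0.0157) and col-73 (log2 -3.22, SE 0.57, adjusted p = 0.00808) fell there too. In the neurons B IP col-117 had 49.6, 0 and 85.4 against 286, 452 and 374 (log2 -4.48, SE 1.35, adjusted p = 0.0129), and without the IP library at 0 its log2 ratio was -2.47. In the authors' deposited table its adjusted p was 0.0512. Col-13 had 27.2, 16.9 and 18.2 against 101.4, 287.5 and 151.2 (log2 -2.95, SE 0.48, adjusted p = 0.000349), and col-73 fell by 2.82 on the log2 scale (SE 0.48, adjusted p = 0.000474). Every IP library of these genes was below every total RNA library.

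**Figure D4:**
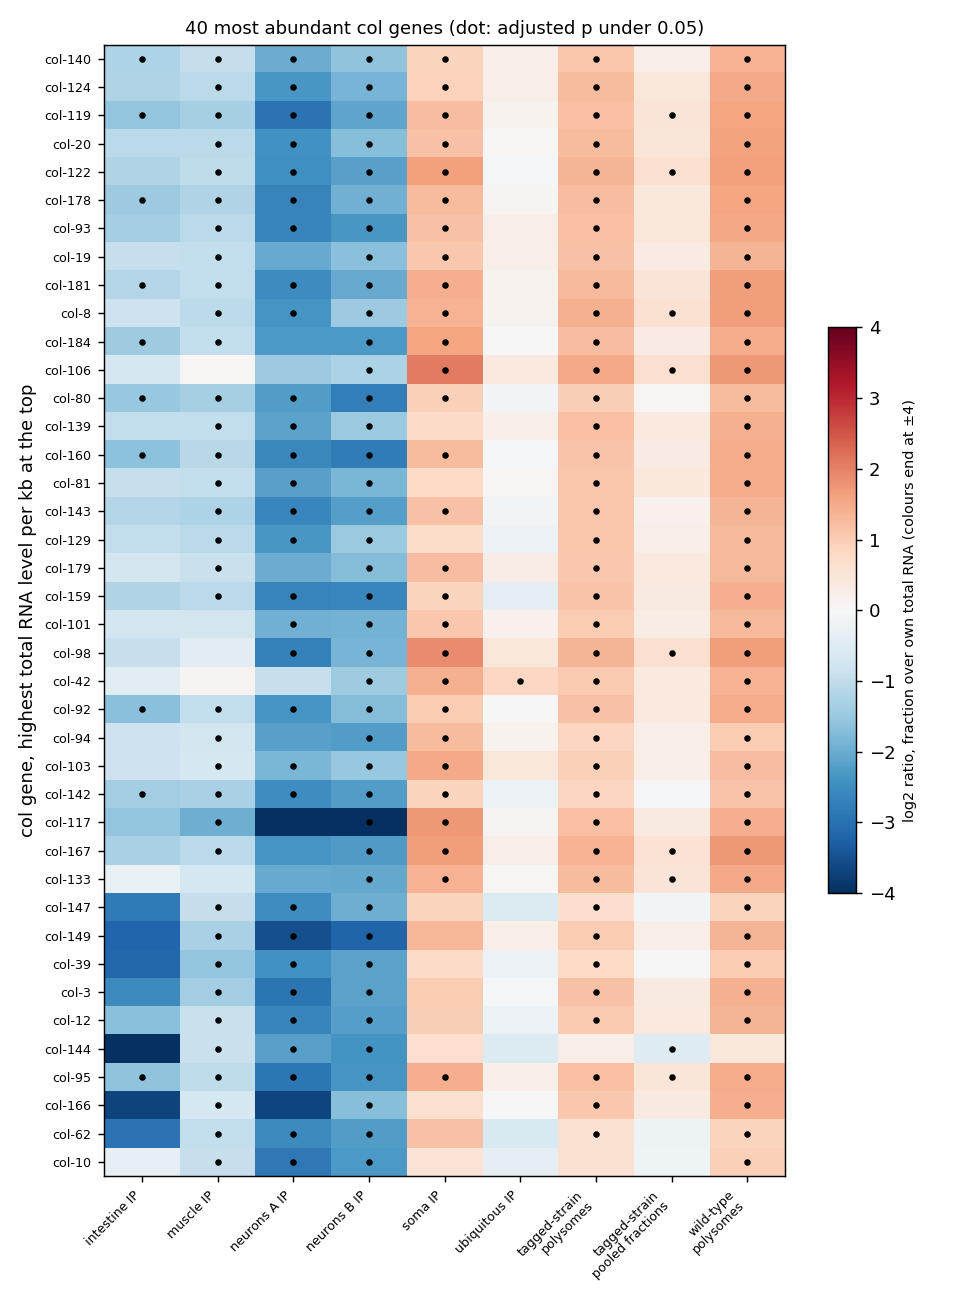
Log2 ratio of fraction over own total RNA (colour, red above 0 and blue below 0) of the 40 col genes with the highest total RNA level per kb (rows) in the 9 experiments (columns). Dots mark genes past the threshold, and all 40 carry one in the neurons B IP, 39 in wild-type polysomes, 38 in tagged-strain polysomes and 1 in the ubiquitous IP.

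Epidermis markers were lower in the tissue IPs as well. Their summed share was 0.0111% to 0.0161% in the intestine IP against 0.0231% to 0.0756% in total RNA, 0.00622% to 0.01% in the muscle IP against 0.029% to 0.0345%, 0.00465% to 0.0102% in the neurons A IP against 0.0243% to 0.0257%, and 0.00708% to 0.013% in the neurons B IP against 0.0401% to 0.07%. These shares too depend on the library sums. Of the epidermis markers tested, 3 of 18 fell in the intestine IP (semo-1 rose), 3 of 18 in the muscle IP, 4 of 14 in the neurons A IP and 17 of 19 in the neurons B IP. Of all genes 9.61%, 13.1%, 12% and 32.6% fell, in that order. In the neurons B IP 9 of 13 intestine markers rose (2.86% to 4.38% of the IP against 1.78% to 2.17% of total RNA), where 38.7% of all genes did. The part of these cells in the col values was not tested. When libraries were scaled to equal sums the median of all genes moved by -1.22 (intestine), -1.39 (muscle), -0.46 (neurons A) and -0.42 (neurons B), and in that order 60, 102, 64 and 80 members fell and 1, 1, 2 and 17 rose.

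The 19 members that rose in the neurons B IP were mostly scarce in total RNA. Of them 8 (col-55, col-75, col-83, col-87, col-105, col-148, col-163 and col-172) had a total RNA mean under 10 and were tested only through the IP, where they are high, so they had to differ. Col-55 was listed at 0 in all 3 total RNA libraries and had 34.8, 61.4 and 28.9 in the IP. The other 11 were col-53, col-68, col-89, col-99, col-115, col-126, col-127, col-130, col-153, col-177 and col-186. Col-89 (chromosome III, 4748127 to 4749164) had 339, 564 and 791 in the IP and 24.8, 29.4 and 23.9 in total RNA (log2 ratio 4.31, SE 0.39, adjusted p = 6.26e-06). Col-68 (chromosome II, 104534 to 105829) had 182, 180 and 150 in the IP and 31.1, 29.3 and 30.1 in total RNA (log2 ratio 2.46, SE 0.35, adjusted p = 0.000164). Col-130 (chromosome IV, 12427505 to 12428516) had 183, 272 and 356 in the IP and 86.6, 125 and 66.0 in total RNA (log2 ratio 1.53, SE 0.38, adjusted p = 0.00461). The groups of all 3 genes were apart, and their calls held when any 1 library was left out and under equal sums.

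Risers and fallers were unevenly spread over gene structures in the neurons B IP. Counting only members with a total RNA mean of at least 10, 7 of 17 with 4 or more exons rose and 4 fell (median 0.52), and of 89 with 1 to 3 exons 4 rose and 73 fell (median -1.92). With those tested only through the IP included it was 13 risen and 4 fallen of 23 (median 1.41), against 6 and 73 of 92 (median -1.90). Of all genes tested in the neurons B IP 38.7% rose and 32.6% fell. The exon classes were drawn after the values had been seen and were not tested. In the muscle IP, by the same total RNA level, 1 of 16 members with 4 or more exons rose and 2 fell, against 0 and 58 of 90 with 1 to 3 exons. In the neurons A IP it was 2 risen and 0 fallen of 14, against 0 and 48 of 92. In wild-type polysomes 11 of 18 members with 4 or more exons rose and 2 fell, against 90 risen and 0 fallen of 94. Of all genes 23.1% rose and 13.1% fell in muscle, 15.3% and 12% in neurons A, and 33.6% and 33.9% in wild-type polysomes. The 2 members that fell in both polysome experiments have 4 or more exons. By the same total RNA level the class medians in the intestine IP were -1.36 (4 or more exons) and -1.45 (1 to 3). In the pooled fractions they were 0.29 and 0.33, and in tagged-strain polysomes 0.64 and 1.06. In the soma IP they were 0.64 and 1.18, and in the ubiquitous IP 0.56 and 0.04. In the 2 neuron IPs the ratios of the 106 members tested in both had a Pearson correlation of 0.847, given as a description of genes that share a library.

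**Figure D5:**
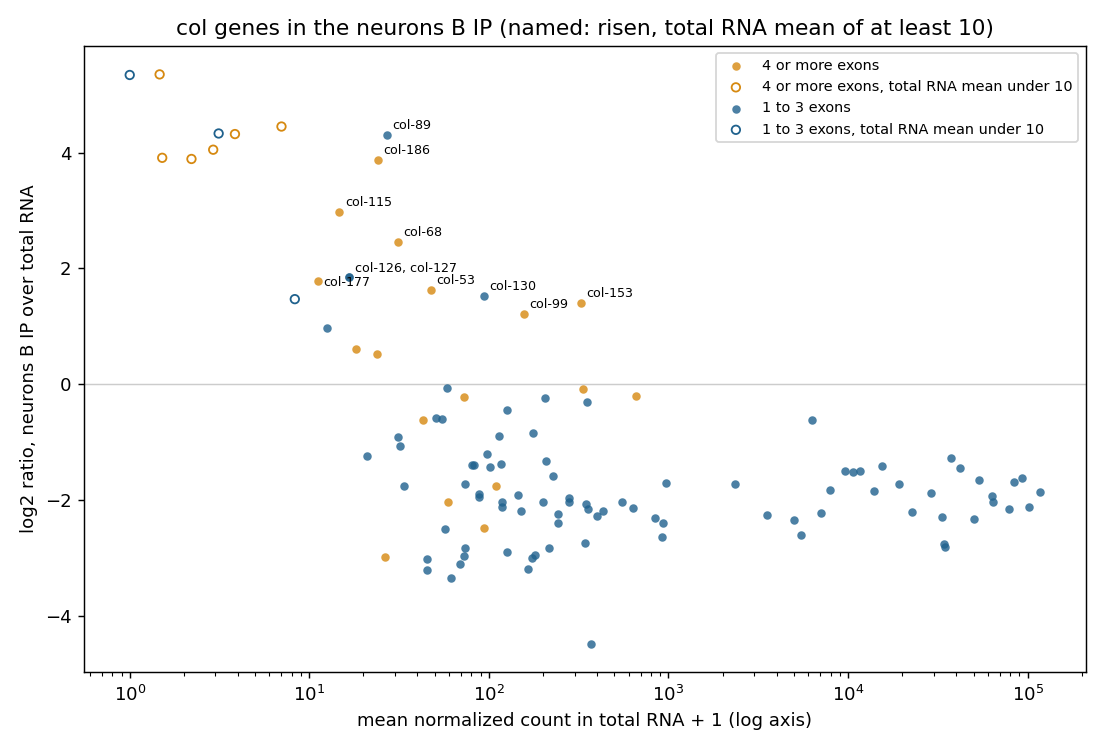
Log2 ratio of the neurons B IP over its total RNA (vertical axis) against the mean normalized count in total RNA plus 1 (horizontal, log axis) for the 115 col genes tested. Orange points have 4 or more exons and blue points 1 to 3, open points had a total RNA mean under 10, and the 11 other risen members are named. No member above 1000 normalized counts in total RNA lies above 0.

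Col-99, with 17 exons on chromosome IV (137974 to 147919), rose in more of the tissue IPs than any other member. It encodes a transmembrane collagen rather than a secreted cuticle collagen. In the muscle IP it had 742, 1319 and 1472 normalized counts against 57.4, 55.4 and 78.3 in total RNA (log2 ratio 4.14, SE 0.29, adjusted p = 5.75e-07). In the neurons B IP it had 314, 414 and 363 against 140, 164 and 161 in total RNA (log2 ratio 1.22, SE 0.27, adjusted p = 0.00269). In the neurons A IP it had 201, 205 and 2171 against 18.5, 32.7 and 28.1 in total RNA (log2 ratio 4.07, SE 1.08, adjusted p = 0.0318), and leaving out any of 4 libraries ended that call, with log2 ratios from 2.93 to 4.65. The ubiquitous IP had 98.97, 108 and 136 against 41.6, 58.9 and 75.6 in total RNA (log2 ratio 0.98, SE 0.26, adjusted p = 0.0149, and adjusted p = 0.0759 without IP replicate 3), and wild-type polysomes 179, 225 and 161 against 90.2, 89.8 and 92.9 (log2 1.03, SE 0.18, adjusted p = 0.000164). In all 5 the groups were apart. The soma IP had 238, 59.6 and 121 against 148, 114 and 106 in total RNA, which overlapped (log2 -0.02, SE 0.48, adjusted p = 0.973). In the intestine IP it had 14.4, 0 and 85.1 against 37.5, 21.4 and 245 (log2 -2.44, SE 1.67, adjusted p = 0.295).

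The other riser in the muscle IP was col-108, with 7.83, 40.03 and 33.2 in the IP and 0.539, 0.961 and 1.06 in total RNA, a member tested only through the IP. In the neurons A IP col-68 rose (132, 152 and 150 against 12.9, 34.98 and 23.8 in total RNA, log2 ratio 2.65, SE 0.78, adjusted p = 0.045), a call that was lost when any of 5 libraries was left out and under equal sums. Col-148 rose in both neuron IPs, with 26.9, 33.4 and 30.6 against 1.46, 0 and 0 in neurons A and 46.9, 56.3 and 49.9 against 3.71, 2.68 and 0 in neurons B. Its total RNA means were under 10 in both. Col-126 and col-127, whose reads could not be told apart, went opposite ways in the neuron IPs. Col-126 fell in neurons A (114, 54.8 and 82.7 against 407, 480 and 745 in total RNA, log2 ratio -2.70, SE 0.62, adjusted p = 0.0195) and rose in neurons B (44.8, 67.5 and 57.5 against 9.87, 23.2 and 14.04, log2 1.85, SE 0.49, adjusted p = 0.00697).

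Members used in earlier work on the adult cuticle followed the family with some gaps. Col-19, a common marker of the adult cuticle, averaged 207153 in the soma IP and 94362 in total RNA (log2 ratio 1.08, SE 0.27, adjusted p = 0.0065), and it rose in wild-type polysomes (log2 1.37, SE 0.17, adjusted p = 5.27e-06). It fell in the muscle IP (log2 -0.99, SE 0.28, adjusted p = 0.0181) and the neurons B IP (log2 -1.66, SE 0.28, adjusted p = 0.000414). Col-101 rose in the soma IP (log2 1.09, SE 0.24, adjusted p = 0.00371), as did col-13 (log2 1.35, SE 0.52, adjusted p = 0.0446) and col-120 (log2 2.05, SE 0.46, adjusted p = 0.00375). The ratios of col-7, col-10, col-12, col-17 and col-62 there were 0.86, 0.55, 0.99, 0.91 and 1.17, with adjusted p from 0.0765 to 0.293, and they did not pass. All 5 rose in wild-type polysomes by 0.77 to 1.35, though the groups of col-7 and col-62 overlapped there. In the tagged strain col-12, col-17 and col-62 rose, while col-7 (log2 0.56, adjusted p = 0.0734) and col-10 (log2 0.61, adjusted p = 0.0952) did not pass. Col-144, from the same fixed list, had ratios of 0.66 in the soma IP and 0.28 in tagged-strain polysomes. It did not pass in wild-type polysomes (log2 0.46, SE 0.22, adjusted p = 0.0719), where its groups overlapped. In the pooled fractions it fell (log2 -0.51, SE 0.20, adjusted p = 0.0487), again with overlapping groups. In the neurons B IP all of these genes fell, col-120 among them (log2 -2.04, SE 0.63, adjusted p = 0.0154).

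Cuticle collagens that carry other names, from mutants with a visible body shape, were counted as a separate list. Of 20 tested in each, 14 rose and 2 fell in the soma IP (median 1.26), 17 rose and 1 fell in wild-type polysomes (median 1.03), 9 rose and 1 fell in tagged-strain polysomes, and 15 fell and 1 (dpy-8) rose in the neurons B IP (median -1.94). In the other tissue IPs fewer passed, with 6 of 20 fallen in muscle, 5 of 19 in neurons A and 1 of 15 in intestine, and none risen. In the pooled fractions 1 rose and 1 fell. Of all genes 25.1% rose and 32.7% fell in the soma IP, and 33.6% and 33.9% in wild-type polysomes. In tagged-strain polysomes it was 28.4% and 30.3%, in the neurons B IP 38.7% and 32.6%, and in the pooled fractions 20.6% and 23.1%. In the muscle, neurons A and intestine IPs 13.1%, 12% and 9.61% of all genes fell. Sqt-3, whose protein is needed throughout development, had 1157, 1081 and 935 in the soma IP and 413, 444 and 424 in total RNA (log2 ratio 1.3, SE 0.28, adjusted p = 0.00309). Dpy-13 had 1424, 1161 and 747 in the soma IP and 582, 553 and 449 in total RNA (log2 ratio 1.03, SE 0.32, adjusted p = 0.0196). Dpy-4 had 1751, 1564 and 733 in the soma IP and 581, 612 and 388 in its total RNA, with no overlap (log2 1.29, SE 0.38, adjusted p = 0.0147). Dpy-5 had 1785, 1782 and 651 in the soma IP and 703, 634 and 438 in its total RNA, where IP replicate 3 fell within the range of total RNA (log2 1.14, SE 0.42, adjusted p = 0.0367). Sqt-1 also rose there (log2 1.23, SE 0.43, adjusted p = 0.0298). Bli-6 fell in the ubiquitous IP (2372, 1819 and 2105 against 3160, 2601 and 6492 in total RNA, log2 ratio -0.85, SE 0.29, adjusted p = 0.0416). Dpy-10 went against the list: it fell in the soma IP (103, 105 and 106 against 170, 207 and 291, log2 -1.05, SE 0.34, adjusted p = 0.0222), in tagged-strain polysomes (log2 -1.35, SE 0.24, adjusted p = 0.00164) and in wild-type polysomes (132.1, 119.1 and 110.4 against 260, 310 and 405, log2 -1.40, SE 0.18, adjusted p = 8.04e-06).

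Collagens of the basement membrane parted from the cuticle family in muscle. The type IV collagen genes emb-9 and let-2 and the type XVIII collagen gene cle-1 all rose in the muscle IP. Emb-9 had 106475, 163669 and 155663 against 4160, 5695 and 5752 in total RNA (log2 ratio 4.76, SE 0.23, adjusted p = 3.97e-08), let-2 rose by 4.01 (SE 0.32, adjusted p = 1.52e-06) and cle-1 by 3.06 (SE 0.19, adjusted p = 2.34e-07). In the neurons B IP emb-9 (log2 -1.97, SE 0.24, adjusted p = 5.65e-05) and let-2 (log2 -2.75, SE 0.32, adjusted p = 4.29e-05) fell and cle-1 rose (log2 2.63, SE 0.29, adjusted p = 2.53e-05). None of the 3 passed the test in the soma IP, with ratios of 0.21, -0.15 and 0.21.

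Enzymes that fold, process and crosslink collagen were less uniform. Of 15 tested, 6 rose and 2 fell in the soma IP, 8 rose and 4 fell in wild-type polysomes, 5 rose and 2 fell in the muscle IP, and 1 rose and 10 fell in the neurons B IP. Of all genes 25.1% rose and 32.7% fell in the soma IP, and 33.6% and 33.9% in wild-type polysomes. In the muscle IP it was 23.1% and 13.1%, and in the neurons B IP 38.7% and 32.6%. Dpy-31, a protease of procollagen, had 2243, 2165 and 2738 in the soma IP and 895, 929 and 608 in total RNA (log2 ratio 1.57, SE 0.30, adjusted p = 0.00184), and it was the list's riser in the ubiquitous IP (log2 0.52, SE 0.15, adjusted p = 0.0243). The protein disulphide isomerase gene pdi-2 rose in the soma IP (log2 0.83, SE 0.26, adjusted p = 0.018). Phy-2, a prolyl hydroxylase subunit, rose there (log2 1.14, SE 0.29, adjusted p = 0.00773) and in the muscle IP (2562, 3540 and 4154 against 586, 395 and 411 in total RNA, log2 ratio 2.87, SE 0.25, adjusted p = 2.93e-06). Let-268, whose product is a procollagen lysyl hydroxylase, rose in the muscle IP (3622, 7238 and 7852 against 459, 278 and 299, log2 4.13, SE 0.31, adjusted p = 1.02e-06). Bli-4, a proprotein convertase gene, fell in the soma IP (log2 -1.10, SE 0.36, adjusted p = 0.0223) and in wild-type polysomes (log2 -1.08, SE 0.12, adjusted p = 1.46e-06). Tmem-131, which acts in collagen secretion, had 1546, 2374 and 1288 in the soma IP and 5075, 3483 and 12050 in its total RNA (log2 -1.83, SE 0.44, adjusted p = 0.00524). It fell in wild-type polysomes too (log2 -1.46, SE 0.13, adjusted p = 1.5e-07). Pdi-1 fell in the ubiquitous IP (log2 -0.83, SE 0.19, adjusted p = 0.00664).

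The differences between experiments were tested as an interaction term over 12 libraries, each fraction set against its own total RNA, and levels were normalized separately in each table. The soma IP ratio was above the muscle IP ratio for 89 of 112 members (19.5% of all 15647 genes) and below it for 1, col-99 (42.1% of all genes), with a median difference of 2.14 against -1.05 for all genes. It was above the neurons B ratio for 82 of 118 (10.5% of all 16604 genes) and below it for 8 (27.3%), with a median difference of 2.86 against -0.46. The 8 include col-83, col-87 and col-148, which had a neurons B total RNA mean under 10. The soma IP ratio was above the intestine ratio for 47 of 116 (8.29% of all 15477 genes) and below it for 0 (10.9%), with a median difference of 2.65 against -0.56. With the replicate as a block in both experiments that count was 79, and with equal sums it was 80. The block also pairs the soma libraries, whose lowest correlation by replicate number was 0.0811, under the limit of 0.1. The count was 26 without intestine total RNA replicate 1 or soma IP replicate 1. Without intestine total RNA replicate 2 or soma total RNA replicate 2 or 3 it was 29 to 30. These comparisons share the soma libraries. Of the members that rose in the soma IP, 37 also fell in both the muscle IP and the neurons B IP. No share over all genes is given for this overlap.

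For col-119 the soma IP ratio exceeded the muscle ratio by 2.53 (SE 0.45, adjusted p = 0.000402), the intestine ratio by 2.80 (SE 0.47, adjusted p = 0.00217) and the neurons B ratio by 3.33 (SE 0.47, adjusted p = 1.34e-05). Among the largest differences were those of col-117 (6.21, SE 1.46, adjusted p = 0.00214, and as low as 4.19 with 1 library left out) and col-88 (5.26, SE 0.80, adjusted p = 3.6e-05) between soma and neurons B, and that of col-120 between soma and intestine (5.28, SE 0.98, adjusted p = 0.00363). Col-170 also passed between soma and intestine, but it was listed at 0 in all 3 intestine IP libraries, so no size is given. Col-120 was at 3.09, 0 and 3.47 in the intestine IP, and its fitted difference rests in part on the library at 0. Between soma and muscle, col-46 and col-137 had the largest fitted differences among members that passed in that direction. Col-46 did not reach a mean of 10 in the muscle experiment and overlaps col-47, so its size is not given, and col-137 (3.74, SE 1.18, adjusted p = 0.0142) had 1 muscle IP library at 0. In the other direction col-99 differed by -4.17 (SE 0.60, adjusted p = 5.76e-05). Between soma and neurons B, col-87 and col-148 had the largest fitted differences in the other direction. Neither reached a mean of 10 in the soma experiment or in neurons B total RNA. They were tested only through the neurons B IP, where they are high, so no size is given.

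The soma and ubiquitous IPs both tag ribosomes broadly, yet their col ratios were not alike. The soma ratio was above the ubiquitous ratio for 42 of 115 members (18.4% of all 15362 genes) and below it for 0 (26.3%), with a median difference of 1.13 against -0.17 for all genes. For col-119 the difference was 1.09 (SE 0.38, adjusted p = 0.0313), and for col-180 it was 2.35 (SE 0.68, adjusted p = 0.0134). Col-69 also passed, but its total RNA mean was under 10 in the soma experiment and it did not reach the test level in the ubiquitous experiment, so no size is given. With the replicate as a block in both experiments, the soma libraries included, 77 members were above. Leaving out ubiquitous total RNA replicate 3, ubiquitous IP replicate 1 or 2 or soma IP replicate 1 gave 18 to 27, and leaving out soma IP replicate 3 gave 66. In the soma IP germline markers fell in 12 of 12 (32.7% of all genes) and in the ubiquitous IP in 8 of 12 (20.4%).

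Within the tagged strain, the ubiquitous IP ratio was below the polysome ratio for 38 of 111 members (21.5% of all 14363 genes) and above it for 4 (22.7%), with a median difference of -1.02 against 0.01. The 4 were col-116 (3.48, SE 0.72, adjusted p = 0.00211), which did not reach a mean of 10 in the ubiquitous experiment, col-76 (2.38, SE 0.26, adjusted p = 3.77e-05), col-158 (1.63, SE 0.47, adjusted p = 0.0128) and col-53 (1.32, SE 0.46, adjusted p = 0.0325). Among members that passed, the largest difference the other way was that of col-126 and col-127 (-1.75, SE 0.61, adjusted p = 0.0311 for each). For col-119 it was -1.08 (SE 0.41, adjusted p = 0.0465). Leaving out ubiquitous total RNA replicate 3, ubiquitous IP replicate 2 or 3, polysome replicate 1 or polysome total RNA replicate 1 or 3 gave 8 to 15 members below. With libraries scaled to equal sums, which shifted the median of all genes by 0.50, 12 were below and 5 above.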

How the data were processed

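Build ce11 and, without their roles, DESeq2 1.30.1, R 4.0.4 and kallisto 0.46.1 are named per the submitters' processing notes. The authors deposited normalized counts for each library (a signal, not whole numbers), scaled separately in each of 9 tables. Their deposited log2 fold changes and adjusted p-values were used only where the authors' table is named. Symbols, exons and positions came from Ensembl release 115 (WBcel235), and 19405 of 20728 identifiers had a symbol. The series text gives WBM1471 for the intestine, and the sample labels' WBM1470 was followed.

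Fraction and total RNA of each experiment were set against each other on log2(normalized count + 1) with limma-trend (R 4.3.3, limma 3.58.1), two-sided, for all genes whose mean reached 10, adjusted p under 0.05 with Benjamini-Hochberg adjustment. A fold change on this scale understates that of scarce genes. The sequencing depth in reads is not given by the files, and the number of libraries limits precision. The test was run on simulated data with large changes, placed only in genes with a mean of at least 100. Smaller changes and changes of scarce genes were not covered by that check. Tables were made with Python 3.11.15 and pandas 2.3.3.

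The members, lists and tests were chosen with earlier results of these data known. Named members were the 10 most abundant, the 3 largest changes per direction and comparison with a mean of at least 100 and groups apart, the 2 largest per direction of each difference, and 12 fixed genes. From each collagen list the 4 most abundant genes that passed in the soma or ubiquitous IP were named. Sqt-3, sqt-1, dpy-10, dpy-31, phy-2, let-268, the basement membrane genes and col-61, col-108, col-116, col-148, col-152, col-126 and col-127 were named after their values were seen, as were some values of other members. Alternatives were pseudocounts of 0.5 and 5, no filter, equal-sum scaling, a replicate block, the authors' test and leaving out each library. Replicate numbers were taken to pair fraction and total RNA where every correlation of their deviations was above 0.1. That held in the intestine (lowest 0.304), neurons A (0.313) and ubiquitous (0.187) experiments. In neurons A not every library correlated best with that of its own number. In the soma experiment each did, with a lowest correlation of 0.0811.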

Additional observations from a re-analysis of the deposited data

Results flagged for a closer look

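The counts of members that passed the interaction test between experiments are given here, with the share of all genes that passed in brackets. Between the soma and ubiquitous IPs 42 members had a higher soma ratio (18.4%). Between the soma and muscle IPs 89 were higher (19.5%) and 1, col-99, was lower (42.1%) in the soma IP. Between the soma and intestine IPs 47 were higher in the soma IP (8.29%). Between the soma and neurons B IPs 82 were higher (10.5%) and 8 lower (27.3%) in the soma IP. Between the ubiquitous IP and the polysomes of the same strain 4 were higher (22.7%) and 38 lower (21.5%) in the ubiquitous IP. The 3 libraries of a group are too few for a test of single outlying samples.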

How the results depend on the processing

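No direction of a named member's called change was reversed under any alternative. Of 1428 recomputed results of named members with 1 library left out, 296 were weaker. Under the other alternatives 42 of 1428 were weaker. Of 420 recomputed counts of called members 337 stayed within 1.5 times and 83 moved. With equal sums 1 rose and 60 fell in the intestine IP, 1 rose and 102 fell in the muscle IP, 23 rose in the ubiquitous IP, 80 were higher in soma than intestine, 4 were lower in soma than neurons B and 12 were lower in the ubiquitous IP than in tagged-strain polysomes. With no filter 1 rose in the intestine IP and 2 were lower in soma than in the ubiquitous IP. The authors' deposited table gave 3 risen and 59 fallen in the intestine IP, 4 risen in the muscle IP, 8 risen and 82 fallen in the neurons A IP and 5 fallen in the ubiquitous IP. With the replicate number as a block 3 rose and 41 fell in the intestine IP, 73 fell in the neurons A IP and 5 fell in the ubiquitous IP, and it raised the counts higher in soma to 77 against ubiquitous and 79 against intestine. Leaving out single libraries gave ranges of 0 to 1 risen and 1 to 24 fallen in the intestine IP, 1 to 5 and 26 to 66 in muscle, 0 to 9 and 3 to 80 in neurons A, 37 to 81 risen in soma, and 3 to 37 risen and 0 to 3 fallen in the ubiquitous IP. They were 39 to 93 risen in tagged-strain polysomes, 2 to 36 risen and 1 to 5 fallen in the pooled fractions, 18 to 66 higher and 0 to 2 lower in soma than ubiquitous, 26 to 68 higher in soma than intestine, 3 to 10 lower in soma than neurons B and 8 to 55 lower in the ubiquitous IP than in tagged-strain polysomes. The counts of the neurons B IP and of wild-type polysomes stayed within 1.5 times throughout. The cause of these shifts was not tested. Scarce members such as col-55, at 0 in total RNA, have no usable ratio.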
